A study of Populus trichocarpa with 9 samples.

Results

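The phenylalanine ammonia-lyase (PAL) genes PtrPAL1 to PtrPAL5 were followed in protoplasts of stem-differentiating xylem (SDX), the wood-forming tissue, of *Populus trichocarpa*. The members are the 5 PAL genes of the study's RT-qPCR primer table: PtrPAL1 (Potri.006G126800), PtrPAL2 (Potri.008G038200), PtrPAL3 (Potri.016G091100), PtrPAL4 (Potri.010G224100) and PtrPAL5 (Potri.010G224200). They are 5 of the 41335 genes in the deposited RNA-seq table, and all 5 were among the 7653 genes that passed the filter on low values. SDX protoplasts, which are cells freed of their walls by enzymes, came from 6-month-old greenhouse trees of the genotype Nisqually-1, propagated as clones. They were transfected with a plasmid for PtrMYB092, a plasmid for PtrHSFB3-1, or a control plasmid with green fluorescent protein (GFP) alone, incubated for 12 h and sequenced, with 3 libraries for each construct and 9 in all. PtrMYB092 is an R2R3-type MYB transcription factor (TF) and PtrHSFB3-1 a class B3 heat shock TF. In the study's constructs a 35S promoter, which is active in most plant cells, drives both the TF and the GFP, so every group carried GFP, and the overexpression was transient.

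PAL removes the amino group of phenylalanine and releases trans-cinnamic acid, the first committed step from primary metabolism into the phenylpropanoids. In xylem most of that carbon goes on through the monolignol pathway to lignin, the polymer that stiffens the secondary wall of wood cells. Plants carry PAL as a small gene family, and all 5 members described here encode the same enzyme activity.

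Some RT-qPCR primers of the family differ by few bases, and they show where the study told the members apart. Only these primer sequences were compared, so how alike the whole genes are is not known here. The 10 primers of the 5 genes, 21 to 26 bases long, are printed because reads from such stretches can fit more than 1 member. Each is written 5′ to 3′, as in the study's primer table. Capitals mark bases that differ from the primer of the paralog it is set beside, or that reach beyond it (PtrPAL1 beside PtrPAL3, PtrPAL4 beside PtrPAL5, and PtrPAL2 beside PtrPAL4).
PtrPAL1 forward primer: CcatccaggtcaaattgaggctgcT
PtrPAL1 reverse primer: acttcttagctgccttcatgtaagcT
PtrPAL3 forward primer: catccaggtcaaattgaggctgcA
PtrPAL3 reverse primer: acttcttagctgccttcatgtaagc
PtrPAL2 forward primer: CctAgaagcCatcaccaaGtTGCTC
PtrPAL2 reverse primer: gTTtctccattgggtccCacG
PtrPAL4 forward primer: gagatgctggaagctatcaccaaAT
PtrPAL4 reverse primer: ggctctccattgggtccaact
PtrPAL5 forward primer: gagatgctggaagctatcaccaaGC
PtrPAL5 reverse primer: ggctctccattgggtccaact
The forward primers of PtrPAL1 and PtrPAL3 shared 23 of 24 aligned bases, and the PtrPAL3 reverse primer was the PtrPAL1 reverse primer without its last base. PtrPAL4 and PtrPAL5 had 1 reverse primer in common, and their forward primers shared 23 of 25 bases. The PtrPAL2 primers stood further off, with 16 of 20 aligned forward bases and 17 of 21 reverse bases shared with PtrPAL4. The treatment of reads shared between members is not given in the sources used here, so the separate values of PtrPAL1 and PtrPAL3, and of PtrPAL4, PtrPAL5 and PtrPAL2, are uncertain.

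The deposited values are whole numbers labelled as raw counts, but at the low end they scattered less between libraries than reads drawn at random, so they were treated as values on a scale that is not given. They summed to 428358 to 495579 per library, and the depth in reads is unknown. PtrMYB092 had 6922, 11036 and 17727 in the libraries transfected with it and 4 to 6 in the other libraries. PtrHSFB3-1 had 19859, 31149 and 42965 in its own libraries, 119, 105 and 165 in the PtrMYB092 libraries, and 67, 53 and 61 in the GFP libraries. The TF levels match the sample titles, while 1 label field of PtrMYB092 replicates 2 and 3 names PtrHSFB3-1. The control gene PtrActin had 91, 104 and 86 with PtrMYB092, 89, 108 and 113 with PtrHSFB3-1, and 97, 100 and 98 with GFP. The 6 secondary wall markers of the study's primer table (PtrCesA4, PtrCesA7, PtrCesA8, PtrCesA17 and PtrCesA18 for cellulose and PtrIRX10-1 for xylan) were at 0 to 2 in every library, so the defining markers of xylem cells laying down secondary wall were near 0. Replicate 1 stood apart for the PAL genes with GFP and PtrHSFB3-1, and less so with PtrMYB092, as described below.

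Summed over the 5 members, PAL made up 1.32%, 0.832% and 0.973% of the library total with PtrMYB092 (replicates 1, 2 and 3). It made up 0.400%, 0.115% and 0.137% with PtrHSFB3-1, and 0.0864%, 0.0156% and 0.0117% with GFP. The 3 constructs did not overlap: the lowest PtrMYB092 library was above the highest PtrHSFB3-1 library, which in turn had all its libraries above the GFP libraries. In bulk RNA, more cells with PAL transcript and more transcript per cell cannot be told apart. As a sum over the members this order was not tested, and the genes were tested 1 by 1.

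**Figure D1:**
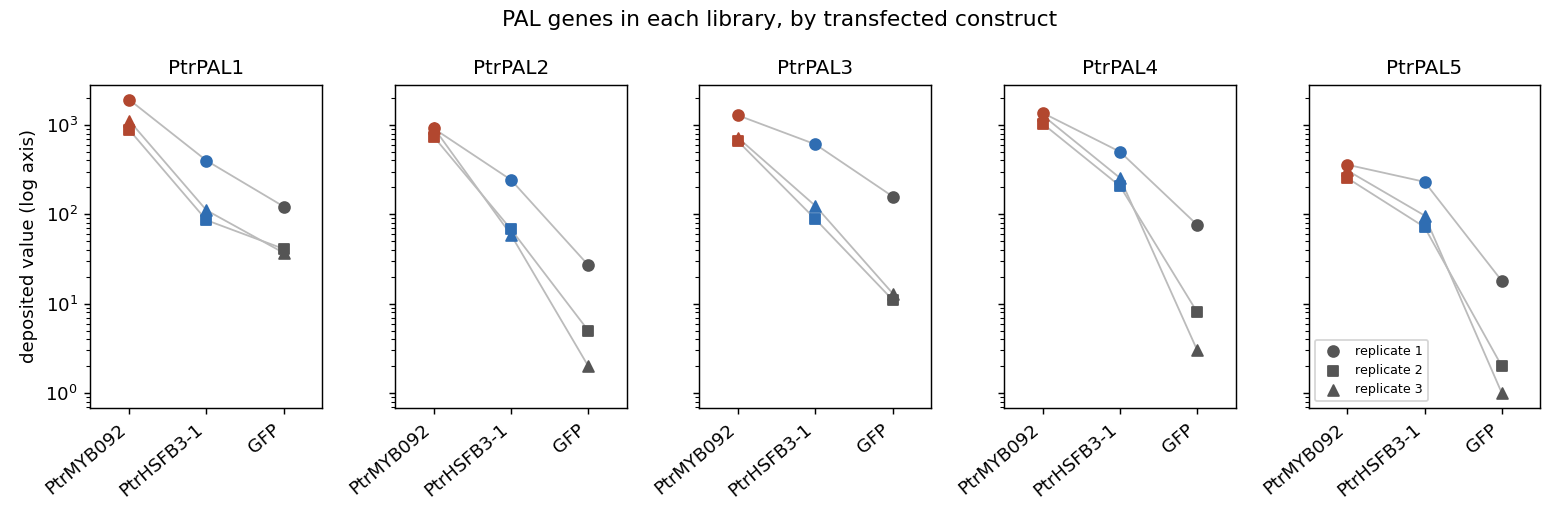
Deposited value (log axis) of each PAL gene in the 9 libraries, with the constructs from left to right PtrMYB092, PtrHSFB3-1 and GFP. Each symbol is 1 library, and grey lines join libraries of equal replicate number. All 15 lines between PtrMYB092 and PtrHSFB3-1 and all 15 between PtrHSFB3-1 and GFP go down to the right, and replicate 1 is the highest in every group except for PtrPAL2 with PtrMYB092.

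PtrPAL1 had 1919, 883 and 1119 with PtrMYB092, 399, 86 and 111 with PtrHSFB3-1, and 122, 41 and 37 with GFP (replicates 1, 2 and 3). The PtrMYB092 libraries were all above the others, while PtrHSFB3-1 replicates 2 and 3 lay below GFP replicate 1. PtrPAL3, its closest match by primer, had 1277, 654 and 716 with PtrMYB092, 606, 88 and 124 with PtrHSFB3-1, and 158, 11 and 13 with GFP. Here too the PtrHSFB3-1 and GFP libraries overlapped through replicate 1. PtrHSFB3-1 replicate 1 and PtrMYB092 replicate 2 came close, and after scaling for library differences (normalized values, used in all tests) PtrPAL3 was higher in the first, at 703, than in the second, at 637.

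PtrPAL2 had 913, 741 and 933 with PtrMYB092, 243, 68 and 59 with PtrHSFB3-1, and 27, 5 and 2 with GFP. These 3 groups were fully separate. PtrPAL4 had 1363, 1033 and 1281 with PtrMYB092, 501, 207 and 255 with PtrHSFB3-1, and 76, 8 and 3 with GFP, also without overlap. PtrPAL5, whose ID follows that of PtrPAL4, had 359, 255 and 310 with PtrMYB092, 231, 72 and 97 with PtrHSFB3-1, and 18, 2 and 1 with GFP. For PtrPAL5 the deposited values of the groups did not overlap, but the normalized value of PtrHSFB3-1 replicate 1 was 268, above the 248 of PtrMYB092 replicate 2.

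All 5 PAL genes were higher with PtrMYB092 than with GFP. This comparison asks which genes respond to overexpressed PtrMYB092. Genes were called higher when the limma adjusted p was under 0.05 with more than a 2-fold rise, which took in 4.6% of all genes tested and 5 of 5 members. With the replicate number as a block in the fit, which compares libraries of equal number, 5 of 5 were called again, against 6.06% of all genes tested. All 3 PtrMYB092 libraries were above all 3 GFP libraries for 5 of 5 members, a separation that 13.9% of all genes tested showed. PtrPAL2 had the largest log2 fold change of the family, 6.88 (standard error 0.81, limma adjusted p = 0.00123), the 5th of 7653 genes in order of size. PtrPAL4 followed with 6.57 (standard error 0.92, limma adjusted p = 0.00301) and PtrPAL5 with 6.09 (standard error 0.78, limma adjusted p = 0.00185), in places 6 and 9. PtrPAL3 had 4.96 (standard error 1.05, limma adjusted p = 0.0252) and PtrPAL1 4.56 (standard error 0.68, limma adjusted p = 0.00431). Differences in response between members were not tested. These fold changes are on the log2(value + 1) scale, which understates the change of genes with GFP values as low as 1 to 5. PtrPAL2, PtrPAL4 and PtrPAL5 were under the filter value of 10 in GFP replicates 2 and 3. They passed the filter through the TF libraries, which favours their calls and places against GFP. On the normalized scale PtrPAL1 averaged 1333 ± 592 with PtrMYB092 and 60.7 ± 43.3 with GFP (SD, n = 3 each), and PtrPAL2 875 ± 132 with PtrMYB092 and 10.3 ± 12.4 with GFP. The call of PtrPAL3 ended without GFP replicate 2 (log2 fold change 4.31, limma adjusted p = 0.0874), GFP replicate 3 (4.42, 0.105) or PtrMYB092 replicate 1 (4.67, 0.105), 2 (5.19, 0.0826) or 3 (5.09, 0.112). Leaving out GFP replicate 1 gave the highest log2 fold changes, 5.15 for PtrPAL1, 7.81 for PtrPAL2, 6.21 for PtrPAL3, 7.83 for PtrPAL4 and 7.08 for PtrPAL5, and leaving out GFP replicate 3 the lowest for PtrPAL2 (6.19), PtrPAL4 (5.68) and PtrPAL5 (5.47). PtrHSFB3-1 itself was 1.22 log2 units higher with PtrMYB092 than with GFP (limma adjusted p = 0.0459), and its part in the PAL values of these libraries was not tested.

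Without a replicate block, 3 of the 5 genes were called higher with PtrHSFB3-1 than with GFP, against 7.08% of all genes tested. That fit leaves out the pairing of libraries by number, and with the block all 5 were called, as given below. PtrPAL5 was higher by a log2 fold change of 4.80 (standard error 0.78, limma adjusted p = 0.00582), PtrPAL4 4.63 (standard error 0.92, limma adjusted p = 0.0138) and PtrPAL2 3.86 (standard error 0.81, limma adjusted p = 0.0169). They stood in places 16, 20 and 47 of 7653 genes. The same 3 members, and not PtrPAL1 or PtrPAL3, had every PtrHSFB3-1 library above every GFP library, as had 20.4% of all genes tested. PtrPAL3 had a log2 fold change of 2.88 (95% interval 0.49 to 5.28, limma adjusted p = 0.108) and PtrPAL1 of 1.66 (95% interval 0.12 to 3.21, limma adjusted p = 0.145). Neither was called without the block. The normalized values of PtrPAL3 averaged 307 ± 343 with PtrHSFB3-1 and 55.1 ± 76.4 with GFP (SD, n = 3 each), a spread as wide as the means. With the replicate number as a block in the limma fit, all 5 genes were called, against 10.2% of all genes tested. PtrPAL1 then had a standard error of 0.24 (limma adjusted p = 0.000681) and PtrPAL3 of 0.44 (limma adjusted p = 0.00100).

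Without the block, the calls against GFP rested in part on single libraries. Without GFP replicate 2 the calls of PtrPAL2 (log2 fold change 3.66, limma adjusted p = 0.0627) and PtrPAL4 (4.30, 0.0546) ended, and likewise without PtrHSFB3-1 replicate 3 (4.27 and 0.0528 for PtrPAL2, 4.77 and 0.0608 for PtrPAL4). Without GFP replicate 3 that of PtrPAL2 ended (3.17, 0.0553), and without GFP replicate 1 PtrPAL3 was called at 4.11 (limma adjusted p = 0.0156). PtrPAL3 was lowest at 2.01 (limma adjusted p = 0.259) without PtrHSFB3-1 replicate 1, and had 2.23 (limma adjusted p = 0.269) without GFP replicate 2. PtrPAL1 had 0.95 (limma adjusted p = 0.319) without PtrHSFB3-1 replicate 1. PtrPAL5 was called in each of the 9 fits with 1 library left out, at 4.18 (without GFP replicate 3) to 5.77 (without GFP replicate 1), and these libraries also gave the ends of the range for PtrPAL4, 3.73 and 5.86, and PtrPAL2, 3.17 and 4.77. With the block, all 5 were called against GFP in each of the 9 such fits.

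**Figure D2:**
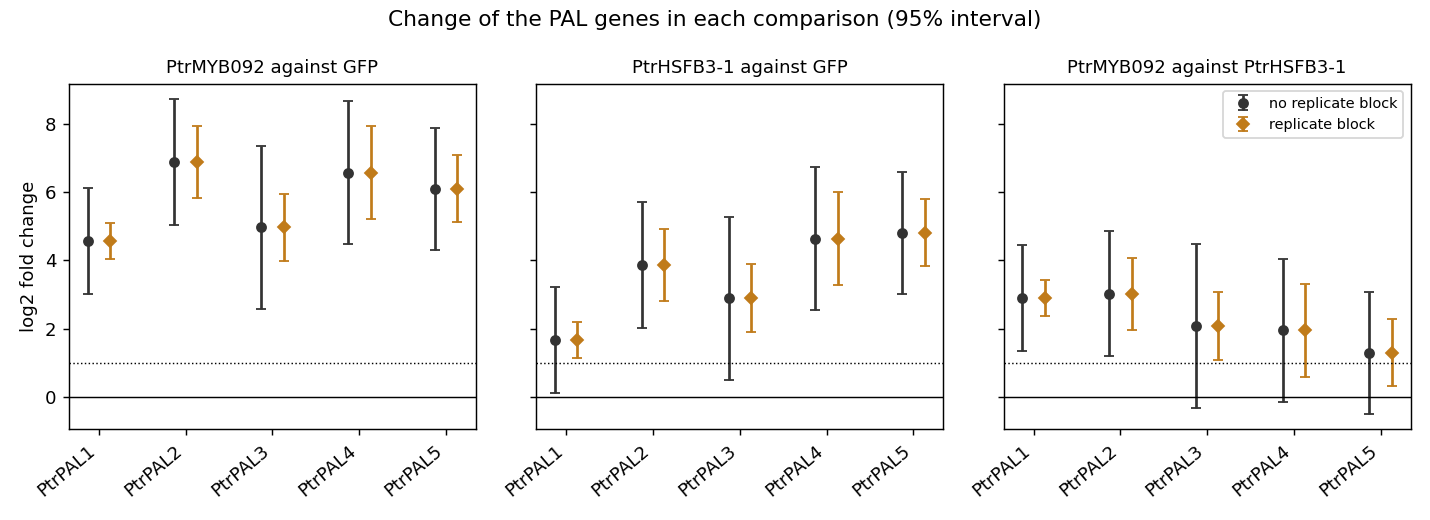
Log2 fold change of each PAL gene in 3 comparisons, with the 95% interval of the limma fit without a replicate block (circles) and with it (diamonds). The dotted line marks a fold change of 2. The estimates are equal in both fits and all are above 0, from 1.29 for PtrPAL5 to 3.02 for PtrPAL2 in PtrMYB092 against PtrHSFB3-1, and the intervals are narrower with the block.

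Set directly against PtrHSFB3-1, PtrPAL1 and PtrPAL2 were called higher with PtrMYB092 in the fit without a replicate block. These were 2 of the 5 members, against 4.55% of all genes tested. PtrPAL2 was higher by a log2 fold change of 3.02 (standard error 0.81, limma adjusted p = 0.0350) and PtrPAL1 of 2.90 (standard error 0.68, limma adjusted p = 0.0207). PtrPAL3 had 2.08 (95% interval -0.32 to 4.47, limma adjusted p = 0.228), PtrPAL4 1.94 (95% interval -0.15 to 4.04, limma adjusted p = 0.196) and PtrPAL5 1.29 (95% interval -0.49 to 3.07, limma adjusted p = 0.319). None of these was called without the block. On the normalized scale all 3 PtrMYB092 libraries were above all 3 PtrHSFB3-1 libraries for PtrPAL1, PtrPAL2 and PtrPAL4, 3 of the 5 members, and for 16.4% of all genes tested. With the replicate block all 5 were called, against 5.63% of all genes tested, with limma adjusted p-values of 2.27e-05 for PtrPAL1, 0.000838 for PtrPAL2, 0.00486 for PtrPAL3, 0.0284 for PtrPAL4 and 0.0401 for PtrPAL5. The blocked calls of PtrPAL4 and PtrPAL5 rested on single libraries, whereas those of PtrPAL1, PtrPAL2 and PtrPAL3 held in each of the 9 blocked fits with 1 library left out. That of PtrPAL4 ended without PtrHSFB3-1 replicate 1 (limma adjusted p = 0.0680) or 2 (0.0954), or PtrMYB092 replicate 2 (0.109) or 3 (0.143). That of PtrPAL5 ended without these same libraries (0.0671, 0.149, 0.156 and 0.185 in that order), and without GFP replicate 2 (0.0663) or PtrHSFB3-1 replicate 3 (0.0549). The call of PtrPAL2 without a block ended without GFP replicate 2 (limma adjusted p = 0.0502) or any of PtrHSFB3-1 replicates 2 (0.106) and 3 (0.138) and PtrMYB092 replicates 1 (0.0778), 2 (0.0850) and 3 (0.104). That of PtrPAL1 ended without PtrHSFB3-1 replicate 2 (limma adjusted p = 0.0715) or 3 (0.0927), or PtrMYB092 replicate 1 (0.0598) or 3 (0.0631). Over the 9 fits PtrPAL1 ranged over 2.40 to 3.61 and PtrPAL2 over 2.61 to 3.70, each highest without PtrHSFB3-1 replicate 1, and PtrPAL4 was called without GFP replicate 1 (1.97, limma adjusted p = 0.0191).

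No member was called lower in a comparison, whereas 0.366% of all genes tested were lower with PtrMYB092 than with GFP, 3.01% with PtrHSFB3-1 than with GFP and 9.8% with PtrMYB092 than with PtrHSFB3-1. Within each replicate number the order of the constructs was the same for every member. All 5 genes were higher with PtrMYB092 than with GFP in 3 of 3 numbers, as were 28.7% of all genes tested. The same held for PtrHSFB3-1 against GFP, with 35.8% of all genes tested, and for PtrMYB092 against PtrHSFB3-1, with 31.5%. For PtrPAL4 the differences of PtrHSFB3-1 from GFP were 3.06, 4.65 and 6.17 log2 units in numbers 1, 2 and 3, and those of PtrMYB092 from GFP were 4.34, 6.92 and 8.45. The GFP value of PtrPAL4, which is subtracted in each difference from GFP, was highest in number 1, where the differences were smallest. PtrPAL1 differed in this only for PtrHSFB3-1, which was above GFP by 2.06, 1.18 and 1.76 log2 units, with the largest difference in number 1. The PtrPAL1 differences of PtrMYB092 from GFP were 4.16, 4.48 and 5.03, again smallest in number 1. The smallest of all differences was that of PtrPAL5 between PtrMYB092 and PtrHSFB3-1 in number 1, 0.48 log2 units.

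Replicate 1 was the highest library for 4 of 5 members with PtrMYB092, 5 of 5 with PtrHSFB3-1 and 5 of 5 with GFP. Among all genes tested replicate 1 was highest for 39.2%, 42.4% and 34.1% in the same groups. The median of replicate 1 minus the mean of the others was 0.41 log2 units for the PAL genes with PtrMYB092, 2.10 with PtrHSFB3-1 and 2.90 with GFP, beside medians of 0.00, 0.01 and -0.01 over all genes tested. Of the 15 other monolignol genes tested, replicate 1 was highest for 6 with PtrMYB092, 13 with PtrHSFB3-1 and 12 with GFP. Their shift was smaller than that of PAL, with medians of 0.33, 0.92 and 1.07. For PtrPAL4 in the GFP libraries replicate 1 was 13.7 times the mean of the others, and for PtrPAL1 it was 3.10 times. The spread within a group, as the SD in percent of the mean, was 15.1% to 44.4% over the 5 genes with PtrMYB092, 56.8% to 112% with PtrHSFB3-1 and 71.4% to 140% with GFP. The TFs went the other way, with PtrMYB092 and PtrHSFB3-1 both at their lowest in replicate 1 of their own groups (1 value per gene does not separate the plasmid's transcript from the tree's own). The part of TF level, or of what the replicate number stands for, in the high PAL values was not tested. Without replicate 1 of all groups, all 5 PAL genes were called in each comparison, against 6.97% of all genes tested for PtrHSFB3-1 against GFP, 3.9% for PtrMYB092 against GFP and 5.42% for PtrMYB092 against PtrHSFB3-1.

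The make-up of the summed PAL value was compared next. The share of a member in the summed PAL value compares that member with itself across libraries. It does not rank members, since the values are not per length. PtrPAL1 made up 27.8% ± 4.47 with PtrMYB092, 17.9% ± 1.94 with PtrHSFB3-1 and 52.6% ± 19.3 with GFP (SD, n = 3 each). In GFP replicate 1 its share was 30.4%, within the PtrMYB092 range of 24.8% to 32.9%. PtrPAL4 made up 27.2% ± 3.36 with PtrMYB092, 34.8% ± 8.26 with PtrHSFB3-1 and 12.1% ± 6.80 with GFP. The share of PtrPAL1 was lowest with PtrHSFB3-1 and that of PtrPAL4 lowest with GFP, in every library of these groups. PtrPAL5 made up 6.81% ± 0.563 with PtrMYB092, 13.5% ± 1.70 with PtrHSFB3-1 and 3.09% ± 1.35 with GFP, and its 3 groups did not overlap. PtrPAL2 was 19.3% ± 3.15 with PtrMYB092, 11.5% ± 2.07 with PtrHSFB3-1 and 5.92% ± 2.07 with GFP, also without overlap but in another order. The GFP shares of these genes rest on low values, 27, 5 and 2 for PtrPAL2 and 18, 2 and 1 for PtrPAL5, so their separation from GFP is uncertain. PtrPAL3 was 18.9% ± 2.78 with PtrMYB092, 22.2% ± 7.34 with PtrHSFB3-1 and 26.3% ± 11.8 with GFP, with overlap among all 3. As scores over the members, these shares were not tested.

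**Figure D3:**
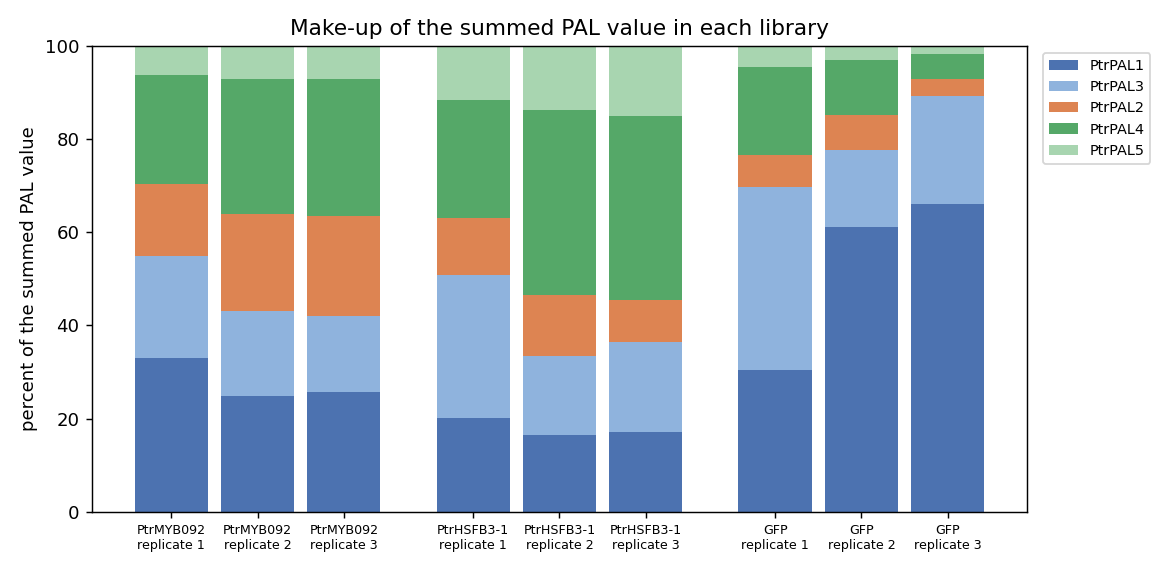
Percent of the summed PAL value taken by each gene in the 9 libraries, with PtrPAL1 and PtrPAL3 at the bottom and PtrPAL2, PtrPAL4 and PtrPAL5 above them. The blue part is largest in the GFP libraries, where PtrPAL1 alone averages 52.6%, though only 30.4% in replicate 1. The light green PtrPAL5 part is widest with PtrHSFB3-1, at a mean of 13.5%.

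Put as a ratio, the PtrPAL2, PtrPAL4 and PtrPAL5 sum over the PtrPAL1 and PtrPAL3 sum was -0.28, 0.40 and 0.46 on the log2 scale with PtrMYB092 (replicates 1, 2 and 3). It was -0.04, 0.99 and 0.80 with PtrHSFB3-1 and -1.20, -1.73 and -2.87 with GFP. Every library with a TF was above every GFP library, by a mean of 2.13 for PtrMYB092 and 2.52 for PtrHSFB3-1. The difference had that sign in 3 of 3 replicate numbers for each TF. PtrPAL2, PtrPAL4 and PtrPAL5 also had the largest log2 fold changes of the family against GFP with both TFs. The separation from GFP therefore restates those changes. PtrMYB092 and PtrHSFB3-1 overlapped in this ratio, with a mean difference of -0.39. Within numbers 1, 2 and 3 the difference was -0.23, -0.59 and -0.34, so PtrMYB092 was the lower in 3 of 3, and it was not tested.

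Inside the pairs by primer sequence the libraries of the TFs did not overlap. The PtrPAL3 to PtrPAL1 ratio was 0.665, 0.741 and 0.640 with PtrMYB092, below the 1.52, 1.02 and 1.12 with PtrHSFB3-1. With GFP it was 1.30, 0.268 and 0.351, so the GFP range overlapped both. The PtrPAL4 to PtrPAL5 ratio was 3.80, 4.05 and 4.13 with PtrMYB092, 2.17, 2.88 and 2.63 with PtrHSFB3-1, and 4.22, 4 and 3 with GFP, where PtrPAL5 stood at only 18, 2 and 1. The PtrHSFB3-1 libraries were the lowest in this ratio, but with 1 added to each value GFP replicate 3, at 1.00 on the log2 scale, lay below them. The PtrPAL4 to PtrPAL2 ratio was 1.49, 1.39 and 1.37 with PtrMYB092, 2.06, 3.04 and 4.32 with PtrHSFB3-1, and 2.81, 1.6 and 1.5 with GFP. These ratios were not tested and were picked as pairs by primer sequence, and the counting of shared reads touches each of them.

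**Figure D4:**
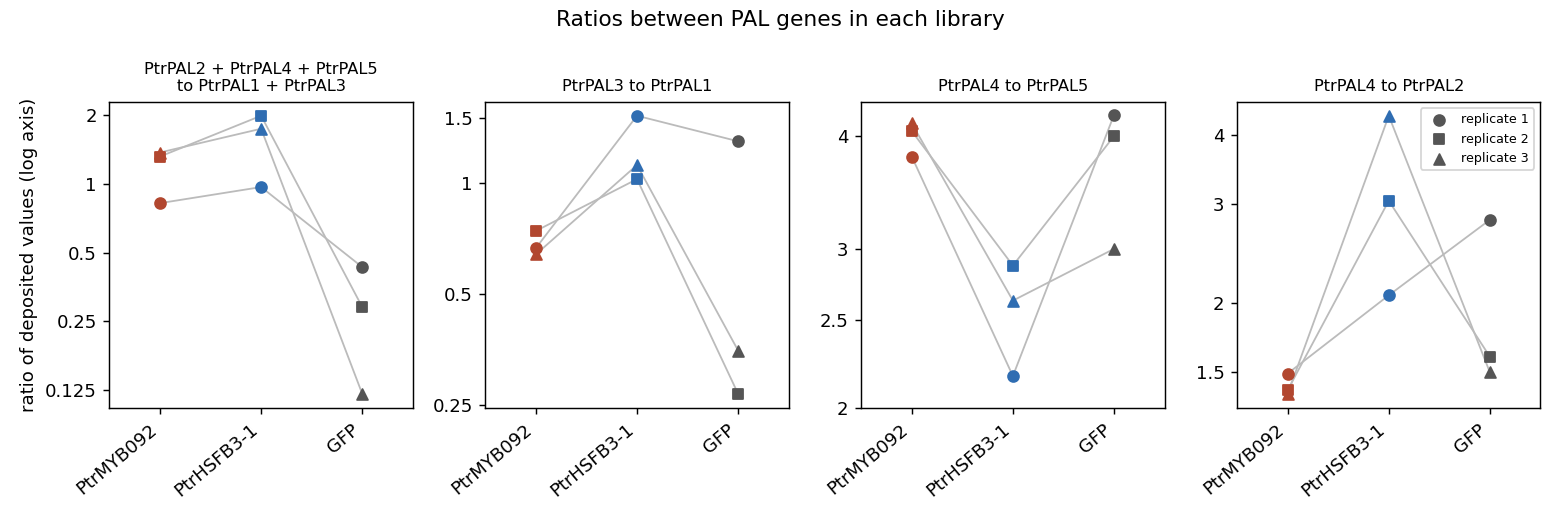
Ratio of deposited values (log axis) between PAL genes or sums of PAL genes in the 9 libraries, 1 symbol per library, with grey lines joining equal replicate numbers. In the first panel the GFP libraries lie below all others, at 0.432 or less, and in the other 3 panels the PtrMYB092 and PtrHSFB3-1 libraries do not overlap.

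Further along the pathway, the other monolignol genes of the primer table had lower median changes. Of these 17 genes, which encode the steps after PAL, 15 passed the filter on low values, and PtrCCoAOMT3 and PtrCAld5H1 did not. PtrHCT1 and PtrHCT6 passed it only through their PtrMYB092 libraries, which favours their calls with PtrMYB092. PtrHCT6 had 61, 32 and 40 there, 20, 4 and 4 with PtrHSFB3-1, and 4, 1 and 1 with GFP. PtrHCT1 had 52, 35 and 42 with PtrMYB092, 9, 6 and 5 with PtrHSFB3-1, and 19, 11 and 9 with GFP. With PtrMYB092 against GFP, 13 of the 15 were called higher and 0 lower, beside 4.6% and 0.366% of all genes tested. Their median log2 fold change was 2.98, beside 6.09 for the 5 PAL genes and -0.05 for all genes tested. With the replicate block 14 were called higher and 0 lower, beside 464 and 584 of the 7653 genes tested. Their largest was 5.16 for PtrCCoAOMT2, a caffeoyl-CoA O-methyltransferase, and their smallest 0.11 for PtrCAld5H2, a coniferaldehyde 5-hydroxylase. In size of log2 fold change, PtrCCoAOMT2 was thus above PtrPAL1 and PtrPAL3 and below PtrPAL2, PtrPAL4 and PtrPAL5. With PtrHSFB3-1 against GFP, 8 of the 15 were called higher and 0 lower, beside 7.08% and 3.01% of all genes tested. Their median was 1.52, beside 3.86 for PAL and 0.01 for all genes tested. The largest was 3.71 for PtrC4H1, a cinnamate 4-hydroxylase, which acts on the product of PAL, and the smallest -0.63 for PtrHCT1, a hydroxycinnamoyl transferase. With the replicate block 10 were called higher and 1 lower, beside 784 and 1296 of the 7653 genes tested. The gene called lower was PtrHCT1 (limma adjusted p = 0.00916 with the block, 0.223 without). With PtrMYB092 against PtrHSFB3-1, 10 of the 15 were called higher and 0 lower, beside 4.55% and 9.8% of all genes tested. The counts of the 15 were equal with the block, which called 431 of the 7653 genes tested higher and 1721 lower. The median of the 15 was 1.73, beside 2.08 for PAL and 0.02 for all genes tested. The largest was 3.53 for PtrC4H2, a cinnamate 4-hydroxylase, which was above all 5 PAL genes, and the smallest 0.13 for PtrCSE1, a caffeoyl shikimate esterase. These comparisons share their GFP libraries or a TF group, so their values are not independent of each other.

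With 1 added to the values, PtrPAL4 and PtrPAL5 were each other's nearest profile among all genes tested. Likeness was the root mean square difference of the log2 values over the 9 libraries after each gene was centred on its own mean, and it was 0.38 for this pair, beside a median of 3.01 between PtrPAL4 and all genes. The nearest gene to PtrPAL1 was PtrHCT6, a hydroxycinnamoyl transferase gene, at 0.27, although it was at only 1 to 4 in the GFP libraries. PtrPAL1 and PtrPAL3, the close pair by primer, were less alike, at 0.76. The nearest gene to the mean of the 5 profiles, and to PtrPAL3, was Potri.016G111000, at 0.20 from the mean. It had 207, 140 and 154 with PtrMYB092, 66, 19 and 24 with PtrHSFB3-1, and 13, 1 and 1 with GFP. PtrPAL2 was nearest to Potri.018G146100, at 0.55. With 5 added to the values in place of 1, the nearest genes of PtrPAL1, PtrPAL5 and the mean changed, and those of PtrPAL2, PtrPAL3 and PtrPAL4 did not. PtrPAL4 was then in place 4 from PtrPAL5. How reads shared by PtrPAL4 and PtrPAL5 were counted is not known, and PtrPAL5 was at 2 and 1 in GFP replicates 2 and 3. The likeness of this pair is therefore uncertain.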

How the data were processed

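The 9 SDX protoplast libraries, 3 per construct, were analysed from 1 table of gene values. The authors aligned reads to P. trichocarpa genome v3.0 by Bowtie 2, while TopHat appears in the submitters' processing notes. How reads were counted, with or without strand, and how shared reads were treated is not given in the sources used here. Whole numbers labelled raw counts were deposited by the authors and are treated here as a score of unknown scale: genes whose values summed to 2 over 2 libraries had 1 in each in 81.9% to 97.5% of cases over the 36 library pairs, whereas random reads give at most 50%. Depth in reads is unknown.

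TMM scaling (trimmed mean of log ratios, trimming 30% of ratios and 5% of levels at each end) was followed by log2(value + 1). limma 3.58.1 in R 4.3.3 fitted 1 mean per construct over the 9 libraries with a trend on the mean (residual degrees of freedom 6). Genes tested reached 10, at the median total of 454442, in 3 or more libraries and summed to 15 or more, which kept 7653 of 27542 genes above 0. P-values were adjusted by Benjamini-Hochberg over all of them. Calls took an adjusted p under 0.05, with over 2-fold for higher and under 0.8-fold for lower. The study calls the libraries biological replicates. No source places them in separate trees, and the p-values cover only the spread between these libraries.

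Deviations from group means correlated at 0.516 to 0.863 in the 9 library pairs of equal number and at -0.706 to 0.267 in the 18 others. Equal numbers therefore pair the libraries, and a limma fit blocked by number (residual degrees of freedom 4) is shown where it changes a result. What a number stands for is not stated.

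Genes named are the 5 PAL genes, the 2 TFs, PtrActin and the genes with the nearest profiles, of which 2 with no gene name are given. Among the other monolignol genes, those with the largest and smallest changes and those that did not pass the filter are named. The members and lists were chosen with earlier results of these data known. No gene ID matched the reference table used here, so coordinates and lengths are not given. Alternatives tried are listed with their effects at the end.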

Additional observations from a re-analysis of the deposited data

How the results depend on the processing

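No log2 fold change of a PAL gene changed direction under any alternative that was run. Ratio differences in replicate number 3 did change sign, from a pseudocount of 1 to none. That of PtrPAL4 to PtrPAL5 for PtrHSFB3-1 against GFP went from 0.385 to -0.191 on the log2 scale. That of PtrPAL4 to PtrPAL2 for PtrMYB092 against GFP went from 0.042 to -0.128. The numbers of PAL genes called were 5 for PtrMYB092 against GFP, 3 for PtrHSFB3-1 against GFP and 2 for PtrMYB092 against PtrHSFB3-1, and they were the same with median-of-ratios scaling, column totals, scaling by PtrActin, a pseudocount of 0.5 or 5, and a filter of 20. Column totals put the median log2 fold change of all genes tested at -0.13, -0.25 and 0.21 in these comparisons and PtrActin at -0.12, -0.26 and 0.23, beside -0.05, 0.01 and 0.02 with TMM. With the replicate block the numbers were 5, 5 and 5, with no filter 5, 3 and 1 (PtrPAL2 at a limma adjusted p of 0.0517), with only the 6 libraries compared 5, 2 and 3 (PtrPAL2 lost at 0.0522 against GFP, PtrPAL4 gained at 0.0248 against PtrHSFB3-1), and with an adjusted p under 0.01 they were 4, 1 and 0, where 5, 5 and 2 had an unadjusted limma p under 0.05. Without replicate 1 of all groups they were 5, 5 and 5. Of all genes tested, the main fit called 4.6%, 7.08% and 4.55% higher, and the block 6.06%, 10.2% and 5.63%. Without replicate 1 of all groups these shares were 3.9%, 6.97% and 5.42%. Shares of all genes under the other settings are not given here, so those counts show only how the calls of the members moved. With 1 library left out they ranged over 4 to 5, 1 to 4 and 0 to 3, with 5, 3 to 5 and 2 to 5 at an unadjusted limma p under 0.05. PtrHSFB3-1 against GFP had 1 called without GFP replicate 2 or PtrHSFB3-1 replicate 3. PtrMYB092 against PtrHSFB3-1 had 0 called without PtrHSFB3-1 replicate 2 or 3 or PtrMYB092 replicate 1 or 3, and 1 without GFP replicate 2 or PtrMYB092 replicate 2. Fits with the block and 1 library left out, chosen after seeing the data, gave 5, 5 and 3 to 5, and the block without replicate 1 of all groups gave 5, 5 and 5. The cause of these changes was not tested. The ratio between the PAL sums differed by 2.21, 2.61 and -0.39 with no pseudocount. Shares per coding length were not run, since no lengths were at hand. Values of 1 to 5 in the GFP libraries, on a scale not given, limit how well the size of the changes is known.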
